A study of Sus scrofa with 12 samples.

Results

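Genes of the unfolded protein response and the integrated stress response were examined in porcine arterial endothelial cells (ECs) under low, physiological and supra-high wall shear stress (WSS). A list of 38 gene symbols from these pathways defined the group, with no filter on expression. The list was chosen with earlier results of these data known, so its shares beside the background are descriptive only. Of the 38, 33 were matched to a row of the deposited table of 21153 genes. ATF4, DDIT3, SDF2L1, DERL1 and SERP1 were not matched to a row and are not analysed here. The cells were primary ECs of 8-month-old slaughterhouse pigs, grown with serum and heparin, and no further treatment or genetic change is named for any group. The methods name coronary arteries as their source, whereas the deposited labels call them aortic. For each condition, cells of 3 donors were kept for 48 h under laminar flow at 2, 30 or 80 dyne/cm2. The cultures at 30 dyne/cm2 gave 2 sets of 3 control libraries, called set 1 and set 2. The deposited design names another flow slide and a higher seeding density for the experiments at 80 dyne/cm2 than for those at 2 dyne/cm2, each with its own cultures at 30 dyne/cm2, where the methods name 1 slide for all. It does not say which set belongs to which slide, so that the pairing used here, 2 dyne/cm2 with set 1 and 80 dyne/cm2 with set 2, is an assumption, and values with the sets exchanged are given where they change a call. Libraries with the same replicate number are called donors 1, 2 and 3 here, and values of 3 libraries are always given in that order. The methods name the same donor and passage within each comparison with 30 dyne/cm2. That both comparisons used the same 3 donors is assumed from the replicate numbers.

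Proteins that enter the secretory pathway fold in the endoplasmic reticulum (ER) with the help of chaperones and protein disulfide isomerases. When unfolded proteins accumulate there, the sensors IRE1 (encoded by ERN1), PERK (EIF2AK3) and ATF6 signal to the nucleus and raise transcription of chaperones, of the translocation machinery and of factors that return misfolded proteins to the cytosol for degradation. PERK also phosphorylates eIF2, a step it shares with kinases that sense amino acid shortage, haem deficiency and double-stranded RNA. This integrated stress response slows general translation while it favours ATF4, whose targets serve amino acid supply and feedback. ECs secrete large amounts of matrix and coagulation proteins and depend on this folding capacity.

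The 12 libraries held 29606854 to 41058902 reads counted on genes. Levels are given as CPM, a gene's reads scaled to the same total in every library. They are compared here between libraries for the same gene, not between genes, because the table holds no gene lengths. The 10 most abundant genes of a library took 12.4% to 19.2% of its reads at 2 dyne/cm2, 9.31% to 12.03% in both sets at 30 dyne/cm2, and 6.83% to 8.42% at 80 dyne/cm2. Of 10 EC markers, 7 had a row, and all of these were detected in every group, among them PECAM1 with 1518 to 4030.2 CPM. Their summed level was 4409 to 5611 CPM at 2 dyne/cm2, 6920.4 to 7725 CPM in set 1, 6558 to 7402 CPM in set 2 and 7930.4 to 8622 CPM at 80 dyne/cm2. The 10 smooth muscle and mesenchymal markers summed to 13.9 to 72.0 CPM at 2 dyne/cm2, 4.60 to 21.8 CPM in set 1, 3.96 to 18.5 CPM in set 2 and 3.74 to 12.2 CPM at 80 dyne/cm2, with DES at 0 in all libraries. Of the 8 leukocyte markers, PTPRC had at most 2 counts in any library and CD3E at most 1, and LAPTM5 gave 532 to 701 CPM of the sum, which was 647 to 716 CPM at 2 dyne/cm2 and 550.0 to 683 CPM at 80 dyne/cm2. The part that these shifts in markers and in the most abundant genes play in the results was not tested. In bulk RNA, fewer cells of a type and less RNA per cell cannot be told apart.

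At 2 vs. 30 dyne/cm2, 12 of the 33 tested members fell and 3 rose, where a gene that rose or fell had an adjusted p under 0.05 in edgeR's quasi-likelihood test with a donor term (Benjamini-Hochberg adjustment over 11226 genes). This was 45.5% of the members against a background of 25.8% of all genes tested (12.4% lower and 13.4% higher). In the comparison of 80 with 30 dyne/cm2, 6 members rose and none fell, which was 18.2% of the members against a background of 8.4%, with 4.36% of all genes higher and 4.04% lower. One member was lower at 80 dyne/cm2 at an unadjusted p under 0.05, and DESeq2 called this gene, CREB3L2, lower. In either direction, 23 members had an unadjusted p under 0.05 at 2 dyne/cm2, where 42.5% of all genes did. At 80 dyne/cm2 15 members had one, where 26.1% of all genes did. Over the members the median log2 fold change was -0.40 at 2 dyne/cm2, where that over all genes tested was 0.0025. For 80 dyne/cm2 these medians were 0.20 and -0.0058. In the study's terms, which also ask for a 2-fold change, no member passed at 2 dyne/cm2 (background 9.6%, made up of 5.06% higher and 4.54% lower), with 1 member past 2-fold at an unadjusted p under 0.05 and 1, ATF3, called by DESeq2. TRIB3 and CHAC1 passed these terms at 80 dyne/cm2, both higher (background 2.2%, made up of 1.14% higher and 1.05% lower). Without a donor term 7 members were called at 2 dyne/cm2 (1244 of all genes) but 0 at 80 dyne/cm2, where 9 members had an unadjusted p under 0.05 and no gene of the table was called. With set 1 as the control for 80 dyne/cm2, 0 members were called (background then 0.234%), and 8 had an unadjusted p under 0.05. For these 2 fits the share of all genes at an unadjusted p under 0.05 is not given here. Without donor 1, 2 or 3, the test called 4, 4 and 8 members at 2 dyne/cm2 and 11, 3 and 2 in the comparison at 80 dyne/cm2. The background was then 12.7%, 16.6% and 13.6% at 2 dyne/cm2, so that 4 of 33 members without donor 1 or donor 2 was no more than the share over all genes, and 18.6%, 3.15% and 1.68% for 80 dyne/cm2.

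Members were also compared within each donor on the scale of log2(CPM + 1). The median over the 33 members was -0.33, -0.39 and -0.46 in donors 1, 2 and 3 at 2 dyne/cm2, a mean of -0.39 ± 0.066 (SD, n = 3), while the median over all genes tested was -0.014 ± 0.042. In that comparison 27, 28 and 30 of the members were lower in the 3 donors. The corresponding medians for 80 dyne/cm2 were 0.30, 0.027 and 0.17, a mean of 0.16 ± 0.13 (SD, n = 3), against -0.033 ± 0.086 over all genes, and 31, 22 and 28 members were higher. The members' median was thus closest to 0 in donor 2 at 80 dyne/cm2. Over all genes tested, the medians there were 0.063, -0.11 and -0.056 in donors 1, 2 and 3, also lowest in donor 2. All 3 donors shared a direction for 90.9% of the members at 2 dyne/cm2, against 65.5% of all genes tested. The shares for 80 dyne/cm2 were 66.7% and 47.1%. The 2 groups of a comparison did not overlap for 15 members lower and 2 higher at 2 dyne/cm2. Over all genes tested this share was 36.5%. At 80 dyne/cm2 the groups did not overlap for 10 members, all higher, against 14.2% of all genes tested. The 3 libraries at 2 dyne/cm2 lay below all 9 other libraries for 14 members, or 42.4% of them against 10.7% of 11568 genes. They lay above all of them for CREB3L2 alone, which is 3.03% of the members against 8.69% of the genes. Conversely, the 3 libraries at 80 dyne/cm2 lay above all others for HYOU1, PDIA4, PDIA6 and P4HB, which is 12.1% of the members against 1.69% of the genes. They lay below all others for 0 members, against 1.12% of the genes.

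**Figure D1:**
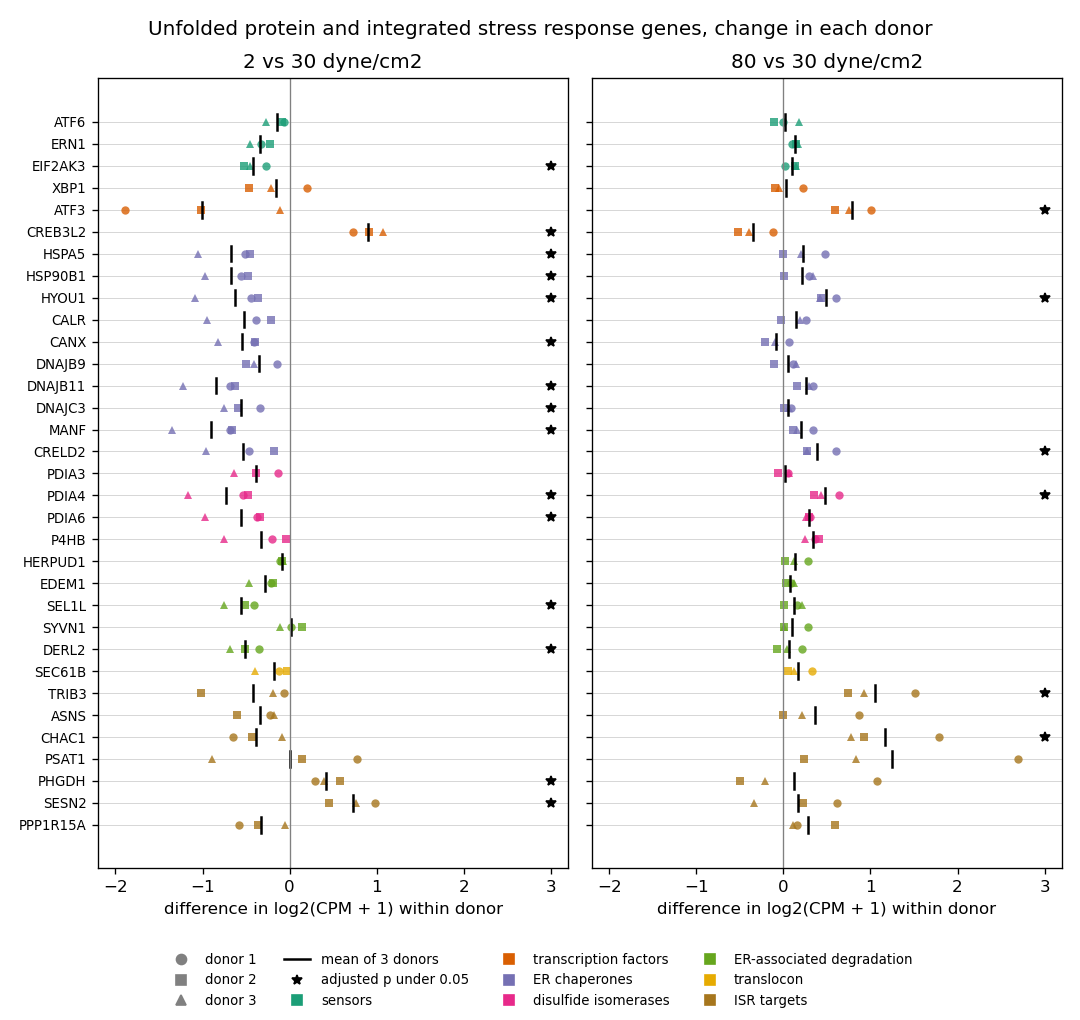
Difference in log2(CPM + 1) within each donor for the 33 members (rows, coloured by role) at 2 vs. 30 dyne/cm2 (left, set 1 as control) and 80 vs. 30 dyne/cm2 (right, set 2 as control). Symbols are donors, black bars the mean of 3 donors and stars an adjusted p under 0.05; chaperones and disulfide isomerases lie left of 0 at 2 dyne/cm2 in every donor, with donor 3 lowest for 13 of 14.

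Of the 10 ER chaperones and co-chaperones with a row, 7 fell at 2 dyne/cm2, or 70% against 25.8% of all genes in either direction. All 10 had negative log2 fold changes, from -0.89 to -0.35. HSPA5 (BiP; ENSSSCG00000005601, chromosome 1, 265930044 to 265934959 on Sscrofa11.1), the HSP70-type chaperone that also holds the 3 sensors inactive, had 659.8, 813 and 517 CPM at 2 dyne/cm2 and 939, 1113 and 1069 CPM in set 1. Its libraries at 2 dyne/cm2 all lay below those of set 1, with a log2 fold change of -0.65, its standard error (SE) being 0.14 (adjusted p = 0.0318). HSP90B1 (GRP94), the HSP90-type chaperone of the ER, had 458, 528 and 382 CPM at 2 dyne/cm2 and 676, 735 and 749.9 CPM in set 1. These groups did not overlap either, and the gene fell by 0.65 (SE 0.12, adjusted p = 0.0221) on the log2 scale. HYOU1, a nucleotide exchange factor of BiP, had 319.8, 457 and 291 CPM at 2 dyne/cm2 and 434, 587 and 621 CPM in set 1. It was lower within every donor and fell by 0.61 (SE 0.16, adjusted p = 0.0464) on the log2 scale, although its groups overlapped. The lectin chaperones CALR and CANX retain glycoproteins until they are folded. CANX had 589, 693 and 483 CPM at 2 dyne/cm2 and 785, 916 and 859 CPM in set 1, apart from each other, and fell by 0.53 (SE 0.12, adjusted p = 0.0341) on the log2 scale. CALR had 967, 1150.3 and 739 CPM at 2 dyne/cm2 and 1264, 1339 and 1429 CPM in set 1. Its groups did not overlap, but with -0.50 (SE 0.16, adjusted p = 0.0799) it did not pass the test, whereas with set 2 as control it did (-0.50, adjusted p = 0.0489).

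The largest changes of this class were those of smaller BiP partners. MANF (ENSSSCG00000032914, chromosome 13, 33658279 to 33662218), a secreted folding factor, had 79.1, 96.4 and 55.1 CPM at 2 dyne/cm2 and 127, 153 and 142 CPM in set 1. Every value at 2 dyne/cm2 was lower than every control value, and its log2 fold change came to -0.89 (SE 0.15, adjusted p = 0.0178). DNAJB11 (ENSSSCG00000011798, chromosome 13, 124387921 to 124409967), an HSP40-type co-chaperone of BiP, had 57.1, 70.3 and 42.8 CPM at 2 dyne/cm2 and 92.0, 109 and 101 CPM in set 1. Its groups were equally apart, with -0.84 (SE 0.13, adjusted p = 0.015). DNAJC3 (p58IPK), a co-chaperone that also inhibits eIF2 kinases, had 59.8, 58.5 and 46.1 CPM at 2 dyne/cm2 and 76.0, 88.5 and 78.2 CPM in set 1. It fell by 0.55 (SE 0.10, adjusted p = 0.0208) on the log2 scale, with no overlap. DNAJB9 (ERdj4), which returns IRE1 to its inactive form, had 25.3, 29.9 and 23.6 CPM at 2 dyne/cm2 and 28.1, 42.7 and 31.5 CPM in set 1, and CRELD2, a secreted partner of disulfide isomerases, had 24.7, 35.5 and 24.6 CPM at 2 dyne/cm2 and 34.5, 40.2 and 49.0 CPM in set 1. Both were lower within every donor while their groups overlapped, and neither passed, with -0.35 (SE 0.11, adjusted p = 0.0739) and -0.53 (SE 0.16, adjusted p = 0.0643). The call at 2 dyne/cm2 was lost without a donor term for HSPA5, HYOU1 and CANX (adjusted p from 0.0532 to 0.0994), without donor 1 for HSPA5, HSP90B1, HYOU1 and CANX (adjusted p from 0.0662 to 0.109), without donor 2 for HSPA5, HSP90B1, HYOU1, CANX and DNAJC3 (adjusted p from 0.0555 to 0.084) and without donor 3 for HYOU1, CANX and DNAJC3 (adjusted p from 0.0592 to 0.0662). MANF and DNAJB11 kept their calls in these 4 fits and with set 2 as control.

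**Figure D2:**
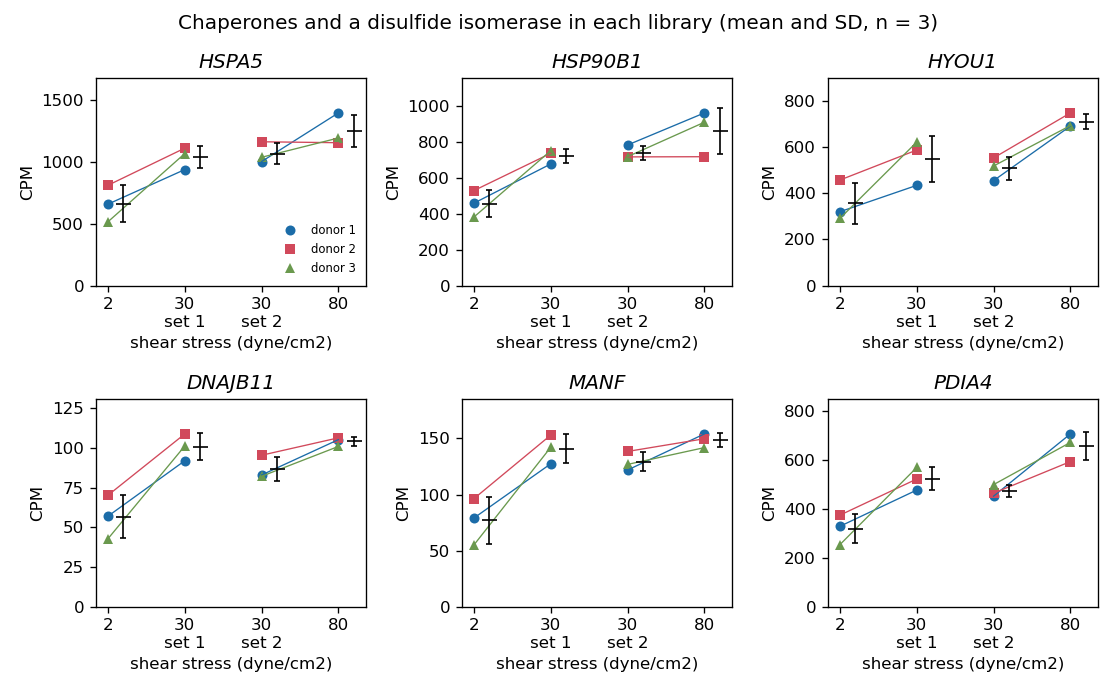
CPM of 5 chaperones and of the disulfide isomerase PDIA4 in each of 12 libraries (y axis from 0), by shear stress and set; lines join the cultures of a donor and black marks give the mean and SD of 3 libraries. For HSPA5, HSP90B1, DNAJB11, MANF and PDIA4 the libraries at 2 dyne/cm2 lie below all 9 others, and for HYOU1 and PDIA4 those at 80 dyne/cm2 lie above all 9 others.

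Supra-high WSS gave positive log2 fold changes for 9 of the 10 chaperones. HYOU1 and CRELD2 rose (20% against 8.4% of all genes in either direction) and 8 of the 10 did not pass. The log2 fold changes ran from -0.05 for CANX to 0.52 for HYOU1. HYOU1 had 690.1, 747 and 692 CPM at 80 dyne/cm2 and 454, 552 and 518 CPM in set 2. Every library at 80 dyne/cm2 exceeded those of set 2, with 0.52 (SE 0.10, adjusted p = 0.0203). CRELD2 had 50.7, 48.2 and 51.1 CPM at 80 dyne/cm2 and 33.0, 39.8 and 42.3 CPM in set 2, also without overlap, and rose by 0.42 (SE 0.087, adjusted p = 0.0299) on the log2 scale. Among the 8 that did not pass, the groups of DNAJB11, DNAJC3 and MANF did not overlap and the others did. HSPA5 had 1398, 1157 and 1195 CPM at 80 dyne/cm2 and 1004, 1164 and 1039 CPM in set 2, which overlapped, with nearly equal values for donor 2 in both. HSP90B1 had 959, 716 and 908 CPM at 80 dyne/cm2 and 781, 715 and 717 CPM in set 2, again with nearly equal values for donor 2. DNAJB11 had 105, 106 and 101 CPM at 80 dyne/cm2 and 83.0, 95.5 and 82.2 CPM in set 2, all of the former higher, with 0.30 (SE 0.079, adjusted p = 0.0622). MANF had 154, 149.8 and 142 CPM at 80 dyne/cm2 and 122, 138 and 127 CPM in set 2, likewise apart, with 0.24 (SE 0.079, adjusted p = 0.111). CALR had 1692, 1321 and 1499 CPM at 80 dyne/cm2 and 1411, 1342 and 1311 CPM in set 2. CANX had 784, 780.3 and 819.9 CPM at 80 dyne/cm2 and 751, 901 and 880.0 CPM in set 2, lower in donors 2 and 3 and higher in donor 1. DNAJC3 had 85.8, 82.3 and 82.0 CPM at 80 dyne/cm2 and 80.5, 81.7 and 78.5 CPM in set 2. DNAJB9 had 28.2, 36.2 and 36.2 CPM at 80 dyne/cm2 and 26.1, 39.1 and 32.6 CPM in set 2, with log2 fold changes of 0.088 and 0.084. The call at 80 dyne/cm2 was lost without a donor term for HYOU1 and CRELD2 (adjusted p = 0.418 and 0.47), with set 1 as control for HYOU1 and CRELD2 (adjusted p = 0.277 and 0.346), without donor 2 for HYOU1 and CRELD2 (adjusted p = 0.0577 and 0.0918) and without donor 3 for HYOU1 and CRELD2 (adjusted p = 0.189 and 0.142).

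Protein disulfide isomerases form and rearrange the disulfide bonds of secreted proteins. Of 4 members, PDIA4 and PDIA6 fell at 2 dyne/cm2 (50% against 25.8% of all genes) and PDIA4 rose at 80 dyne/cm2 (25% against 8.4%). PDIA4 (ENSSSCG00000015453, chromosome 9, 109260850 to 109280256) had 329, 374 and 254 CPM at 2 dyne/cm2 and 477, 522 and 569 CPM in set 1. It had 706, 593 and 671 CPM at 80 dyne/cm2 and 451, 464 and 499 CPM in set 2. Neither comparison showed overlap, and the log2 fold changes were -0.71 (SE 0.15, adjusted p = 0.0297) and 0.51 (SE 0.10, adjusted p = 0.0216). PDIA6 had 353, 423 and 259.9 CPM at 2 dyne/cm2 and 459, 534 and 511 CPM in set 1, and 573, 599 and 555 CPM at 80 dyne/cm2 and 462, 489 and 462 CPM in set 2. Its groups were apart in both comparisons, but only the fall of 0.55 (SE 0.14, adjusted p = 0.0494) on the log2 scale passed, with 0.32 (SE 0.10, adjusted p = 0.0827) at 80 dyne/cm2. P4HB, which is also a subunit of the collagen prolyl 4-hydroxylase, had 828, 965 and 646 CPM at 2 dyne/cm2 and 949.8, 996 and 1091 CPM in set 1, and 1248, 1236 and 1199 CPM at 80 dyne/cm2 and 973, 933 and 1011 CPM in set 2. It did not pass at 2 dyne/cm2, with -0.32 (SE 0.16, adjusted p = 0.187) and overlapping groups, nor at 80 dyne/cm2, with 0.37 (SE 0.11, adjusted p = 0.0841) and groups that did not overlap. PDIA3 (ERp57), which works with the lectin chaperones, had 842, 923 and 646 CPM at 2 dyne/cm2 and 926, 1207 and 1006 CPM in set 1, and 1072, 1066 and 1063 CPM at 80 dyne/cm2 and 1034, 1115 and 1021 CPM in set 2. Its groups were apart only in the first comparison, and its log2 fold changes of -0.37 and 0.048 did not pass (adjusted p = 0.0916 and 0.809). The call at 2 dyne/cm2 was lost without a donor term for PDIA6 (adjusted p = 0.0859), with set 2 as control for PDIA6 (adjusted p = 0.053), without donor 1 for PDIA4 and PDIA6 (adjusted p = 0.0508 and 0.0911), without donor 2 for PDIA4 and PDIA6 (adjusted p = 0.0614 and 0.0856) and without donor 3 for PDIA6 (adjusted p = 0.0729). The call at 80 dyne/cm2 was lost without a donor term for PDIA4 (adjusted p = 0.401), with set 1 as control for PDIA4 (adjusted p = 0.298), without donor 2 for PDIA4 (adjusted p = 0.0534) and without donor 3 for PDIA4 (adjusted p = 0.194). Without donor 1, PDIA6 and P4HB passed at 80 dyne/cm2 (0.36, adjusted p = 0.0406, and 0.41, adjusted p = 0.0247).

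Over the 14 chaperones and disulfide isomerases together, donor 3 had the lowest value within donors at 2 dyne/cm2 for 13 genes, with a median of -0.97 against -0.43 in donor 1 and -0.43 in donor 2. The library of donor 3 at 2 dyne/cm2 was also the one with the highest share of reads in its 10 most abundant genes, 19.2%. Donor 1 had the highest value at 80 dyne/cm2 for 10 of the 14 genes, with a median of 0.32, and donor 2 the lowest for 10, with a median of 0.062. With library sizes scaled by TMM in place of total counts, the mean of the donors' medians over the 33 members was -0.38 for 2 dyne/cm2 and 0.18 for 80 dyne/cm2.

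Of the 3 sensors, EIF2AK3 fell at 2 dyne/cm2 (33.3% against 25.8% of all genes). None rose there, with none higher at an unadjusted p under 0.05 and none by DESeq2. EIF2AK3 (PERK), which links ER stress to eIF2, had 52.5, 56.3 and 48.0 CPM at 2 dyne/cm2 and 63.3, 81.3 and 66.4 CPM in set 1. All its libraries at 2 dyne/cm2 lay below set 1, and it fell by 0.41 (SE 0.091, adjusted p = 0.0329) on the log2 scale. It had 64.8, 82.3 and 80.8 CPM at 80 dyne/cm2 against 64.0, 74.9 and 72.9 CPM in set 2, which overlapped. ERN1 (IRE1), the kinase and RNase that splices XBP1 mRNA, had 592, 670.4 and 579 CPM at 2 dyne/cm2 and 743, 783 and 792 CPM in set 1, and 781, 816 and 826 CPM at 80 dyne/cm2 and 732, 738 and 735 CPM in set 2. Its groups were apart in both comparisons, lower at 2 and higher at 80 dyne/cm2, without passing the test in either, with -0.32 (SE 0.10, adjusted p = 0.071) and 0.17 (SE 0.11, adjusted p = 0.353). The 2 sets at 30 dyne/cm2 were apart for ERN1 too, with set 2 lower (-0.089, adjusted p = 0.532 in the edgeR test). ATF6, released by proteolysis in the Golgi, had 174 to 238 CPM in the 12 libraries and log2 fold changes of -0.13 and 0.053 (adjusted p = 0.282 and 0.764). Its sign at 80 dyne/cm2 changed without donor 3. No sensor passed at 80 dyne/cm2, with none at an unadjusted p under 0.05 and none called by DESeq2. The call at 2 dyne/cm2 was lost without a donor term for EIF2AK3 (adjusted p = 0.0655), without donor 1 for EIF2AK3 (adjusted p = 0.084), without donor 2 for EIF2AK3 (adjusted p = 0.0949) and without donor 3 for EIF2AK3 (adjusted p = 0.0927).

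Of the 3 transcription factors with a row, CREB3L2 rose at 2 dyne/cm2 (33.3% against 25.8% of all genes). ATF3 rose at 80 dyne/cm2 (33.3% against 8.4%) and XBP1 passed in neither comparison. CREB3L2 (ENSSSCG00000016520, chromosome 18, 11533184 to 11666132), a membrane-bound factor of the ATF6 type that supports secretory capacity, had 319, 340.3 and 326 CPM at 2 dyne/cm2 and 192, 180.4 and 154 CPM in set 1. The 2 groups were far apart, and it rose by 0.92 (SE 0.11, adjusted p = 0.00886) on the log2 scale, the lowest adjusted p of the members at 2 dyne/cm2. It had 198, 161 and 137 CPM at 80 dyne/cm2 and 215, 230.4 and 181 CPM in set 2. These groups overlapped although all donors were lower, with -0.32 (SE 0.087, adjusted p = 0.0688), and without donor 1 the fall passed (-0.38, adjusted p = 0.0154). ATF3, an early stress factor downstream of ATF4, had 21.4, 26.8 and 16.2 CPM at 2 dyne/cm2 and 81.8, 55.1 and 17.6 CPM in set 1, and 39.6, 64.4 and 32.7 CPM at 80 dyne/cm2 and 19.3, 42.5 and 18.9 CPM in set 2. At 2 dyne/cm2 donors 1 and 2 were much lower and donor 3 was close to its control, and the log2 fold change of -1.03 (SE 0.36, adjusted p = 0.0943) did not pass. It was -0.22 (adjusted p = 0.387) with set 2 as control and passed without donor 3 (-1.50, adjusted p = 0.0293). Under supra-high WSS each donor was higher than its own control and the groups overlapped, with 0.84 (SE 0.092, adjusted p = 0.00466). XBP1, which has to be spliced by IRE1 to encode the active factor, had 182, 182 and 117 CPM at 2 dyne/cm2 and 158, 252 and 136 CPM in set 1, and 204, 209.9 and 131 CPM at 80 dyne/cm2 and 174, 225 and 136 CPM in set 2. Donors differed in direction in both comparisons, and neither -0.14 (SE 0.15, adjusted p = 0.49) nor 0.058 (SE 0.084, adjusted p = 0.696) passed. Without donor 2 the sign at 2 dyne/cm2 changed, with 0.032. Gene counts do not separate spliced from unspliced XBP1 mRNA. The call at 80 dyne/cm2 was lost without a donor term for ATF3 (adjusted p = 0.66) and with set 1 as control for ATF3 (adjusted p = 0.982).

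ER-associated degradation removes misfolded proteins through a ligase complex in the ER membrane. Of its 5 members with a row, SEL1L and DERL2 fell at 2 dyne/cm2 (40% against 25.8% of all genes). None passed at 80 dyne/cm2, where none had an unadjusted p under 0.05 and DESeq2 called none. SEL1L, the scaffold of the ligase complex, had 184, 206 and 178 CPM at 2 dyne/cm2 and 245, 295 and 299 CPM in set 1, and 279, 299 and 352 CPM at 80 dyne/cm2 and 249.7, 297 and 304 CPM in set 2. Its libraries were apart at 2 dyne/cm2, with -0.55 (SE 0.093, adjusted p = 0.018), and overlapped at 80 dyne/cm2. DERL2, part of the exit channel, had 31.0, 34.2 and 24.3 CPM at 2 dyne/cm2 and 39.8, 49.3 and 39.6 CPM in set 1, and 40.9, 42.2 and 38.7 CPM at 80 dyne/cm2 and 35.1, 44.5 and 37.5 CPM in set 2. It fell by 0.51 (SE 0.10, adjusted p = 0.0215) on the log2 scale without overlap, whereas its groups at 80 dyne/cm2 overlapped. EDEM1, which marks glycoproteins for disposal, had 287, 378 and 276 CPM at 2 dyne/cm2 and 331, 432 and 380.1 CPM in set 1, and 275, 401 and 363 CPM at 80 dyne/cm2 and 259, 394 and 333 CPM in set 2. Its groups overlapped in both comparisons, with -0.27 (SE 0.092, adjusted p = 0.0877) and 0.11 (SE 0.09, adjusted p = 0.47), and the second sign changed with set 1 as control. SYVN1 (HRD1), the ligase itself, had 24.3 to 29.8 CPM in the 12 libraries and log2 fold changes of 0.035 and 0.14. HERPUD1, an early target of the response, had 79.9 to 134 CPM and log2 fold changes of -0.076 and 0.17 (adjusted p = 0.486 and 0.219). SEC61B, a subunit of the channel through which proteins enter the ER, had 64.9, 60.7 and 49.3 CPM at 2 dyne/cm2 and 71.0, 62.1 and 65.0 CPM in set 1, and 85.8, 64.2 and 70.0 CPM at 80 dyne/cm2 and 68.3, 61.7 and 64.3 CPM in set 2. Its groups overlapped, with -0.17 (SE 0.091, adjusted p = 0.214) and 0.20 (SE 0.079, adjusted p = 0.16). The call at 2 dyne/cm2 was lost without a donor term for DERL2 (adjusted p = 0.0614), without donor 1 for SEL1L and DERL2 (adjusted p = 0.0514 and 0.0558), without donor 2 for SEL1L and DERL2 (adjusted p = 0.0607 and 0.0723) and without donor 3 for DERL2 (adjusted p = 0.0625).

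The last 7 members are targets of ATF4 and the integrated stress response. At 2 dyne/cm2 PHGDH and SESN2 rose and none fell, which was 28.6% against 25.8% of all genes. There 1 of 7 was lower at an unadjusted p under 0.05 and none was called lower by DESeq2. TRIB3 and CHAC1 rose at 80 dyne/cm2 (28.6% against 8.4%), both by at least 2-fold. At an unadjusted p under 0.05, 5 of 7 were higher, where 26.1% of all genes differed in either direction. TRIB3 (ENSSSCG00000039862, chromosome 17, 34808273 to 34819592), a pseudokinase that restrains ATF4 and AKT, had 18.4, 29.2 and 14.2 CPM at 80 dyne/cm2 and 5.81, 17.1 and 7.02 CPM in set 2. Each donor was higher than its own control but the groups overlapped, since donor 2 had high values in both, with 1.17 (SE 0.15, adjusted p = 0.00678) on the log2 scale. It had 12.02, 13.3 and 7.90 CPM at 2 dyne/cm2 and 12.7, 27.9 and 9.17 CPM in set 1. These overlapped, with -0.44 (SE 0.23, adjusted p = 0.209). CHAC1 (ENSSSCG00000038521, chromosome 1, 130360510 to 130363332), which degrades glutathione, had 26.8, 37.7 and 18.4 CPM at 80 dyne/cm2 and 7.08, 19.4 and 10.3 CPM in set 2. It too was higher in each donor with overlapping groups, at 1.26 (SE 0.18, adjusted p = 0.00911). It had 10.6, 16.8 and 10.8 CPM at 2 dyne/cm2 and 17.3, 23.0 and 11.5 CPM in set 1, which overlapped, with -0.40 (SE 0.16, adjusted p = 0.118). With set 2 as the control for 2 dyne/cm2 the signs of both changed, to 0.31 for TRIB3 and 0.17 for CHAC1.

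ASNS, PHGDH and PSAT1 are enzymes of serine and asparagine synthesis, which ATF4 raises in amino acid shortage, and of these 3 PHGDH alone passed in a comparison with 30 dyne/cm2. ASNS, the asparagine synthetase, had 45.9, 47.1 and 37.97 CPM at 2 dyne/cm2 and 54.0, 71.8 and 43.2 CPM in set 1, and 100.0, 71.5 and 59.2 CPM at 80 dyne/cm2 and 54.5, 71.9 and 50.8 CPM in set 2. The groups overlapped in both, with -0.33 (SE 0.12, adjusted p = 0.112) and 0.40 (SE 0.13, adjusted p = 0.118), and with set 2 as control the fall at 2 dyne/cm2 passed (-0.39, adjusted p = 0.0432). PHGDH, the first enzyme of serine synthesis, had 16.9, 31.7 and 30.3 CPM at 2 dyne/cm2 and 13.7, 20.8 and 22.7 CPM in set 1. It was higher within every donor and rose by 0.46 (SE 0.10, adjusted p = 0.0317) on the log2 scale, although its groups overlapped. PHGDH had 29.3, 20.7 and 23.0 CPM at 80 dyne/cm2 against 13.4, 29.7 and 26.8 CPM in set 2, higher in donor 1 and lower in donors 2 and 3, with 0.15 (SE 0.25, adjusted p = 0.748). PSAT1, the next enzyme, was near the filter, with 2.52 to 6.07 CPM in all libraries at 30 dyne/cm2. It had 21.8, 5.97 and 7.66 CPM at 80 dyne/cm2, above all of set 2, with 1.48 (SE 0.44, adjusted p = 0.086). The highest value was that of donor 1, and without donor 1 the log2 fold change was 0.72 (adjusted p = 0.00322). SESN2, an inhibitor of mTORC1 signalling, had 16.9, 21.0 and 15.5 CPM at 2 dyne/cm2 and 8.09, 15.1 and 8.75 CPM in set 1. These groups did not overlap, and it rose by 0.80 (SE 0.15, adjusted p = 0.0224) on the log2 scale. PPP1R15A (GADD34), which reverses eIF2 phosphorylation, had 85.4, 91.1 and 88.3 CPM at 2 dyne/cm2, below all of set 1 with 128, 118 and 91.9 CPM, but did not pass (-0.32, SE 0.13, adjusted p = 0.131). SESN2 and PPP1R15A had log2 fold changes of 0.22 and 0.32 at 80 dyne/cm2 and did not pass there (adjusted p = 0.465 and 0.166), but PPP1R15A did without donor 1 (0.43, adjusted p = 0.00449). The call at 2 dyne/cm2 was lost without a donor term for PHGDH and SESN2 (adjusted p = 0.321 and 0.102), with set 2 as control for PHGDH (adjusted p = 0.11), without donor 1 for PHGDH and SESN2 (adjusted p = 0.0885 and 0.0889), without donor 2 for PHGDH (adjusted p = 0.094) and without donor 3 for PHGDH and SESN2 (adjusted p = 0.0967 and 0.0728). The call at 80 dyne/cm2 was lost without a donor term for TRIB3 and CHAC1 (adjusted p = 0.616 and 0.551), with set 1 as control for TRIB3 and CHAC1 (adjusted p = 0.291 and 0.0872) and without donor 3 for TRIB3 (adjusted p = 0.0567).

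**Figure D3:**
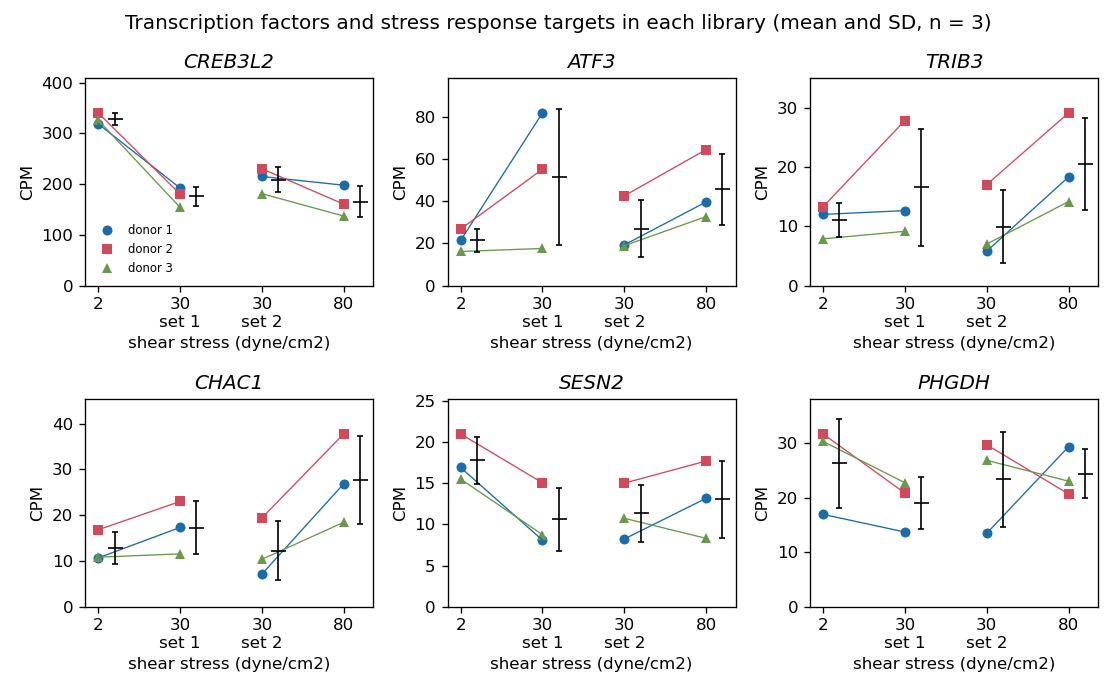
CPM of CREB3L2, ATF3, TRIB3, CHAC1, SESN2 and PHGDH in each of 12 libraries (y axis from 0), by shear stress and set; lines join the cultures of a donor and black marks give the mean and SD of 3 libraries. CREB3L2 is above all other libraries at 2 dyne/cm2, and for ATF3 and CHAC1 donor 1 is lower in set 2 than in set 1 at the same shear stress.

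Whether the responses to low and to supra-high WSS differed was tested in 1 model over the 12 libraries with a donor term, in which the 2 sides have separate controls. The log2 fold change at 2 dyne/cm2 was more negative than that at 80 dyne/cm2 for 24 of the 33 members and more positive for 1 (adjusted p under 0.05). This was 75.8% of the members against 37.1% of the 11568 genes tested (17.9% lower and 19.3% higher). All 10 chaperones and all 4 disulfide isomerases were among the 24, with differences from -1.20 for PDIA4 to -0.41 for PDIA3. PDIA4 had an SE of 0.17 (adjusted p = 0.000745), HYOU1 a difference of -1.13 (SE 0.17, adjusted p = 0.00106), DNAJB11 one of -1.12 (SE 0.14, adjusted p = 0.00041) and HSPA5 one of -0.90 (SE 0.17, adjusted p = 0.00298). Of the degradation and translocation factors, SEL1L, DERL2, EDEM1 and SEC61B differed, with -0.70 to -0.36, and HERPUD1 and SYVN1 did not pass (adjusted p = 0.103 and 0.493), although HERPUD1 did with the sets exchanged (-0.48, adjusted p = 0.0108). EIF2AK3 and ERN1 differed by -0.53 and -0.48, and ATF6 did not pass (-0.17, adjusted p = 0.221). ATF3 had a difference of -1.96 (SE 0.52, adjusted p = 0.0157), but of -0.14 (adjusted p = 0.875) with the sets exchanged. CREB3L2 was the single member with a positive difference that passed, 1.25 (SE 0.15, adjusted p = 0.00032). CHAC1, TRIB3 and ASNS differed by -1.65, -1.56 and -0.73, and the first 2 by -0.52 and -0.073 with the sets exchanged (adjusted p = 0.233 and 0.897). PSAT1 (-1.62), PPP1R15A (-0.66), SESN2 (0.59) and PHGDH (0.28) did not pass with all donors, with adjusted p from 0.0912 to 0.556 for SESN2, PSAT1 and PHGDH and 0.0729 for PPP1R15A, and neither did XBP1 (-0.20, adjusted p = 0.358).

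Of these 25 members, 13 also passed without donor 1, without donor 2 and without donor 3, namely HSPA5, HYOU1, DNAJB11, DNAJC3, MANF, CRELD2, PDIA4, PDIA6, SEL1L, DERL2, CREB3L2, TRIB3 and CHAC1. Without donor 1, ERN1, CALR, CANX, DNAJB9, PDIA3, P4HB, EDEM1, SEC61B and ASNS did not pass (adjusted p from 0.0549 to 0.141) and PHGDH did (0.83, adjusted p = 0.0175). Without donor 2 this held for EIF2AK3, ATF3, CANX, DNAJB9, PDIA3 and EDEM1 (adjusted p from 0.0634 to 0.16), and without donor 3 for ERN1, EIF2AK3, HSP90B1, CALR, CANX, DNAJB9, PDIA3, P4HB, EDEM1, SEC61B and ASNS (adjusted p from 0.0562 to 0.301). In the model without a donor term EIF2AK3, ATF3, CANX, DNAJB9, PDIA3, EDEM1, SEC61B, TRIB3, ASNS and CHAC1 did not pass (adjusted p from 0.0708 to 0.382). When the 2 sets at 30 dyne/cm2 were exchanged, 15 members passed, of which 14 were among the 25, and ERN1, ATF3, CANX, DNAJB9, PDIA3, P4HB, EDEM1, DERL2, SEC61B, TRIB3 and CHAC1 did not pass (adjusted p from 0.0567 to 0.897). The background was then 22.2%.

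**Figure D4:**
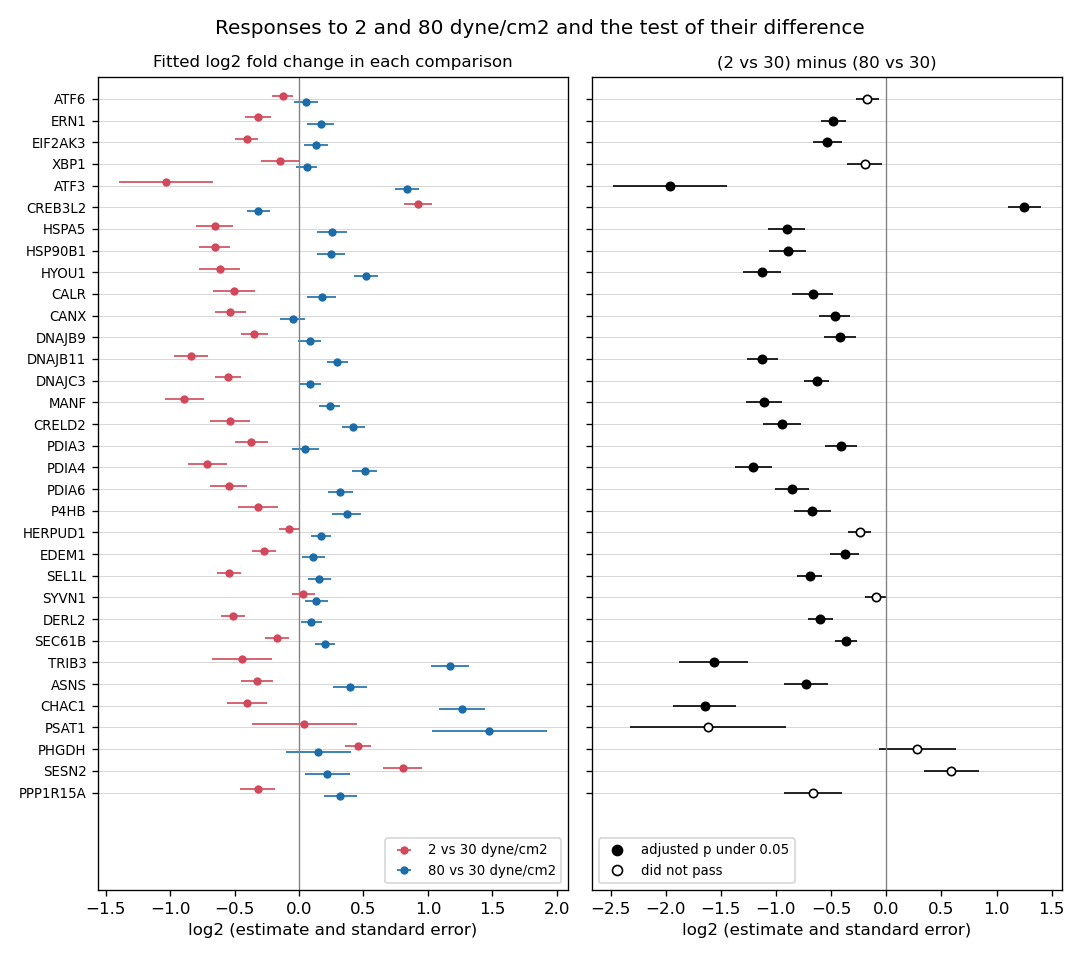
Fitted log2 fold changes with standard errors of the 33 members at 2 vs. 30 and 80 vs. 30 dyne/cm2 (left), and the difference of the 2 responses, (2 vs 30) minus (80 vs 30), with its standard error (right; filled points have an adjusted p under 0.05). The chaperones and disulfide isomerases lie left of 0 in the right panel, all 14 filled, and CREB3L2 is the filled point right of 0.

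The 2 sets at 30 dyne/cm2 had the same shear stress and, by the deposited design, different slides, and were compared to see how far the members varied without a change in WSS. No member differed between them (background 0.0179%, edgeR), with 5 members at an unadjusted p under 0.05 (19.2% of all genes) and 1, TRIB3, called by DESeq2. Regardless of sign, the members' median log2 fold change was 0.089 between the sets, against 0.46 at 2 dyne/cm2 and 0.22 at 80 dyne/cm2. Over all genes tested these values were 0.12, 0.27 and 0.16. With sign, 24 members were lower and 9 higher in set 2, with a median of -0.044 against 0.0057 over all genes tested. Within donors 1, 2 and 3 the members' median was -0.022, -0.087 and -0.042. The part that this plays in the rise at 80 dyne/cm2 was not tested. Chaperones differed between the sets by -0.23 to 0.023. ATF3, TRIB3 and CHAC1 differed by more, ATF3 by -0.80 (SE 0.39, adjusted p = 0.322), TRIB3 by -0.76 (SE 0.14, adjusted p = 0.112) and CHAC1 by -0.57 (SE 0.22, adjusted p = 0.246), all lower in set 2. In donor 1, ATF3 had 81.8 CPM in set 1 and 19.3 CPM in set 2, and CHAC1 17.3 and 7.08 CPM. Against set 2, the log2 fold changes of ATF3, TRIB3 and CHAC1 at 80 dyne/cm2 were 0.84, 1.17 and 1.26, as given above, whereas with set 1 as control the log2 fold changes at 80 dyne/cm2 were 0.03, 0.41 and 0.68 (adjusted p = 0.982, 0.291 and 0.0872). HYOU1 and PDIA4 at 80 dyne/cm2 had 0.46 and 0.43 with both sets as control and passed there (adjusted p = 0.0385 and 0.0388).

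Other genes of the pathways, from 5 lists of 112 symbols of which 105 were tested, were called at shares close to the background in each comparison with 30 dyne/cm2. At 2 dyne/cm2, 9 rose and 18 fell, or 25.7% against the background of 25.8%, and at 80 dyne/cm2 8 rose and 1 fell, or 8.57% against 8.4%. The difference between the responses passed for 52 of them, 39 lower and 13 higher, or 49.5% against 37.1%. Among 20 further ER folding factors, such as foldases and redox enzymes, 2 rose and 5 fell at 2 dyne/cm2 (35% against 25.8%, median -0.14). None passed at 80 dyne/cm2 (background 8.4%), where 4 had an unadjusted p under 0.05 and DESeq2 called 1. Of 18 tested factors of ER-associated degradation and signal peptide removal, 1 rose and 5 fell at 2 dyne/cm2 (33.3% against 25.8%, median -0.28). None passed at 80 dyne/cm2, with 4 at an unadjusted p under 0.05 and none by DESeq2. Of 18 translocon and secretory transport factors, 1 fell at 2 dyne/cm2 (5.56% against 25.8%). None passed at 80 dyne/cm2, with 2 at an unadjusted p under 0.05 and none by DESeq2. Of 18 tested sensors, eIF2 factors and stress transcription factors, 2 rose and 1 fell at 2 dyne/cm2, and 1 rose and 1 fell at 80 dyne/cm2. NUPR1, a stress-induced chromatin factor, rose from 129 ± 79.0 to 245 ± 101 CPM at 2 dyne/cm2 (n = 3), with 1.03 (SE 0.12, adjusted p = 0.00849). EIF2AK2 (PKR), the eIF2 kinase that senses double-stranded RNA, fell from 41.13 ± 12.1 to 27.6 ± 5.74 CPM at 80 dyne/cm2, with -0.52 (SE 0.085, adjusted p = 0.0141).

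A list of 31 further ATF4 targets held mainly genes of amino acid supply and tRNA charging, and also DDIT4, STC2, VEGFA and VLDLR. Their median log2 fold change was -0.16 at 2 dyne/cm2, where 4 rose and 6 fell (32.3% against 25.8%). At 80 dyne/cm2 it was 0.33, where 7 rose and none fell (22.6% against the background of 8.4%). There 20 of the 31 were higher and none lower at an unadjusted p under 0.05, against 26.1% of all genes in either direction. DESeq2 called 11 higher and none lower. In the comparison of set 2 with set 1, 25 of the 31 had negative and 6 positive log2 fold changes, with 0 called. Their median there was -0.12, where that over all genes tested was 0.0057. The part that this lower level in set 2, the control used, plays at 80 dyne/cm2 was not tested. DDIT4, an inhibitor of mTORC1 signalling, fell from 90.2 ± 13.6 to 28.9 ± 2.37 CPM at 2 dyne/cm2 (-1.62, SE 0.089, adjusted p = 0.00329). It rose from 83.7 ± 10.2 to 142 ± 17.4 CPM at 80 dyne/cm2, with 0.80 (SE 0.10, adjusted p = 0.00666). SLC7A11, the cystine transporter, fell from 88.6 ± 12.2 to 44.8 ± 18.6 CPM at 2 dyne/cm2, with -1.04 (SE 0.23, adjusted p = 0.0321). STC2, a secreted glycoprotein, rose from 8.42 ± 6.24 to 31.9 ± 6.52 CPM at 2 dyne/cm2, with 2.16 (SE 0.36, adjusted p = 0.0174), and CBS, an enzyme of cysteine synthesis, rose from 17.1 ± 4.10 to 43.9 ± 9.80 CPM, with 1.38 (SE 0.09, adjusted p = 0.00366). VEGFA, the vascular endothelial growth factor, rose from 57.2 ± 21.1 to 113 ± 57.5 CPM at 80 dyne/cm2, with 0.96 (SE 0.12, adjusted p = 0.00678), and PSPH, the last enzyme of serine synthesis, rose from 11.3 ± 5.63 to 17.0 ± 5.91 CPM, with 0.66 (SE 0.16, adjusted p = 0.0447). Cytosolic and mitochondrial heat shock proteins served as a comparison outside the ER. Of 12 tested, 3 fell at 2 dyne/cm2 (25% against 25.8% of all genes) and 1 rose at 80 dyne/cm2 (8.33% against 8.4%). The medians were -0.12 and 0.12. HSPB8, a small heat shock protein near the filter, fell from 2.39 ± 1.87 to 1.22 ± 1.29 CPM at 2 dyne/cm2, with -1.16 (SE 0.30, adjusted p = 0.0489). Of the 105 pathway genes, 12 and 0 were called at 2 and 80 dyne/cm2 without a donor term, 0 at 80 dyne/cm2 with set 1 as control, 11, 14 and 13 at 2 dyne/cm2 without donor 1, 2 or 3, and 12, 6 and 1 at 80 dyne/cm2 without them.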

How the data were processed

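Single-end reads of 100 nt were mapped to Sscrofa11.1 (STAR 2.4) and counted on exons (featureCounts 1.4.6) per the labels and the submitters' processing notes, with reads mapping to more than 1 location discarded, and the authors deposited raw counts per gene. Members and other lists were matched by gene symbol and were chosen with earlier results of these data known. All members are named, and of the other lists the 3 genes per comparison and direction with the largest log2 fold change among those that passed with the same direction in all 3 donors. Genes reaching 1 CPM in 3 or more libraries of a comparison were tested in R 4.3.3 with edgeR 4.0.16 (TMM, two-sided quasi-likelihood test, Benjamini-Hochberg adjustment over all genes tested), and DESeq2 1.42.0 was an alternative. A donor term was used because the study's methods compare cultures of the same donor and passage within each comparison. Its use across the 2 sets rests on the shared replicate number. Deviations from group means correlated with r from 0.61 to 0.86 between libraries of the same number (18 pairs, 11568 genes) and from -0.55 to -0.17 between others (36 pairs). Each SE was derived from the edgeR test, as the absolute log2 fold change divided by the square root of the test's F statistic. The scripts were tested on simulated data. Positions are RefSeq's on Sscrofa11.1. TMM assumes that most genes do not change.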

Additional observations from a re-analysis of the deposited data

Results flagged for a closer look

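Differences between the response to 2 dyne/cm2 and the response to 80 dyne/cm2, against set 1 and set 2 at 30 dyne/cm2 in the assumed pairing, passed the test (edgeR, adjusted p under 0.05, 3 donors) for 25 of 33 members, against 37.1% of all genes tested. Among the ER chaperones they were -1.11 for MANF, -1.12 for DNAJB11, -1.13 for HYOU1, -0.95 for CRELD2, -0.90 for HSPA5 and -0.89 for HSP90B1 on the log2 scale, and -0.67 for CALR, -0.63 for DNAJC3, -0.47 for CANX and -0.42 for DNAJB9. Among the disulfide isomerases they were -1.20 for PDIA4, -0.85 for PDIA6, -0.67 for P4HB and -0.41 for PDIA3. The degradation and translocation factors had -0.70 for SEL1L, -0.60 for DERL2, -0.38 for EDEM1 and -0.36 for SEC61B. For the sensors EIF2AK3 and ERN1 the differences were -0.53 and -0.48. The stress targets had -1.65 for CHAC1, -1.56 for TRIB3 and -0.73 for ASNS, and the transcription factors -1.96 for ATF3 and 1.25 for CREB3L2. CREB3L2 was the one member among the 25 with a positive difference. With the sets exchanged, 14 of the 25 passed, and ATF3 (-0.14, adjusted p = 0.875), TRIB3 (-0.073, adjusted p = 0.897) and CHAC1 (-0.52, adjusted p = 0.233) were among those that did not. In the assumed pairing all 3 donors had the sign of the fitted difference for each of the 25. Since these 25 were chosen by a test on the same 3 donors, this is not separate evidence.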

How the results depend on the processing

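Calls depended on the donor term. Without the replicate block (donor term), 7 members were called at 2 dyne/cm2 (1 rose, 6 fell), 0 at 80 dyne/cm2 and 15 in the difference between the responses (14 lower), and of the other pathway genes 12, 0 and 18, while PSAT1 at 2 dyne/cm2 turned to -0.016. With the 2 sets at 30 dyne/cm2 exchanged, 0 members and 0 pathway genes were called at 80 dyne/cm2 (background 0.234%). The difference then gave 15 members (14 lower) and 21 pathway genes (background 22.2%). The median over members within donors at 2 dyne/cm2 was -0.32. Signs then turned for TRIB3 (0.31) and CHAC1 (0.17) at 2 dyne/cm2, for DNAJB9 (-0.0042), EDEM1 (-0.14) and DERL2 (-0.066) at 80 dyne/cm2, and for EDEM1 (0.12) and PHGDH (-0.20) in the difference. With both sets as control, 2 members, both higher, and 4 pathway genes were called at 80 dyne/cm2 (background 2.88%), and EDEM1 had -0.014. Asking also for a 2-fold change left 0 members at 2 dyne/cm2 (0 rose, 0 fell) and 2 at 80 dyne/cm2, both higher. DESeq2 called 20 members at 2 dyne/cm2 (3 rose, 17 fell), where 29.6% of all genes were called. Gained there were ERN1, ATF3, CALR, CRELD2 and PDIA3 (DESeq2 adjusted p from 0.0102 to 0.0366). At 80 dyne/cm2 it called 8 members higher and 1 lower, where 10.3% of all genes were called. PDIA6, P4HB and CREB3L2 were gained there (DESeq2 adjusted p = 0.0186, 0.00742 and 0.0398). It called 1 member lower in set 2 than in set 1. Leaving out 1 donor at a time gave 4 to 8 members at 2 dyne/cm2 (1 to 2 rose, 2 to 7 fell), where 12.7% to 16.6% of all genes were called, 2 to 11 at 80 dyne/cm2 (2 to 10 rose, 0 to 1 fell), where 1.68% to 18.6% were, and 14 to 19 in the difference (1 to 2 higher, 13 to 18 lower), where 17.1% to 29.2% were. Of the pathway genes, 11 to 14, 1 to 12 and 20 to 35 were called, against 27, 9 and 52 with all donors. In these fits the log2 fold change ranged over 0 for PSAT1 (-0.45 to 0.58), XBP1 (-0.32 to 0.032) and SYVN1 (-0.0093 to 0.076) at 2 dyne/cm2, for PHGDH (-0.29 to 0.43) and ATF6 (-0.043 to 0.11) at 80 dyne/cm2, and for PHGDH (-0.085 to 0.83) in the difference. The cause of these changes was not tested. Of the other values of single members under these alternatives and under RLE normalization, other filters and DESeq2, 841 kept direction and side of the threshold, 112 kept direction but no longer passed and 28 came to pass. Depth limits PSAT1 most, with as few as 89 reads in a library.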
